A study of Triticum aestivum with 8 samples.

Results

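The regions described here are stretches of wheat chromatin that were accessible in leaves, shoot apices and axillary buds but had no accessible peak in roots. They were found by merging the peaks of the 4 tissues wherever peaks shared at least 1 bp, and by keeping each merged region with a peak in all 3 shoot-side tissues and none in root. This gave 11395 root-lacking regions among 221805 merged regions (5.14%). Of the 55056 merged regions with a peak in all 3 shoot-side tissues, the root-lacking regions were 20.7%, and the other 43661 had a root peak as well. These regions were chosen by the presence or absence of a peak in the 4 lists, so the numbers, widths and distances to root peaks given below are descriptions without a test. A position without a peak in a list is not shown to be closed in that tissue.

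ATAC-seq uses a transposase that inserts sequencing adapters into DNA not packed by nucleosomes, and peaks of insertions mark promoters, enhancers and other candidate regulatory DNA. The shoot apex holds the stem cells that produce leaves, and in grasses axillary buds grow out as side shoots called tillers, so the 3 shoot-side tissues are parts of the same organ system. Bread wheat (Triticum aestivum) is a hexaploid whose A, B and D subgenomes came from different ancestral grasses, and each homoeologous group holds the matching A, B and D chromosomes.

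The samples came from the cultivar AiKang58. Leaves and shoot apices were taken from 2-week-old seedlings, and axillary buds of 1.0 to 2.0 cm from 6-week-old plants after 30 days of vernalization at 4 °C. Roots came from the 2-week-old seedlings. Days had 16 h of light (22 °C) and nights 8 h (19 °C). Each tissue had 2 libraries and 1 deposited peak list, with nothing recorded per library. Because buds alone were older and cold-treated, a bud peak in these regions carries tissue, age and cold together. The lists held 123032 leaf, 131949 shoot apex, 122118 bud and 119387 root peaks, and none gave a height or a read count. No spread between replicates could therefore be computed for any value below, and the sequencing depth is unknown.

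The root-lacking regions were narrower than the regions open in all 4 tissues and wider than the other classes of 3 tissues. Their median width was 1050 bp (quartiles 750 and 1537 bp), against 1308 bp (quartiles 900 and 2000 bp) for regions of all 4 tissues, whose width includes the root peak. The median was 753 bp for regions without a bud peak, 729 bp for regions without a leaf peak and 895 bp for regions without a shoot apex peak. Bases covered by the peaks of a shoot-side tissue leave out the width of the root peak itself. A root peak can still join separate shoot-side peaks into 1 region, and its part in the coverage was not tested. Leaf peaks covered a median of 575 bp of a root-lacking region, against 792 bp of a region of all 4 tissues and 500 bp of a region without a bud peak. Shoot apex peaks covered a median of 725 bp of a root-lacking region, against 950 bp of a region of all 4 tissues and 496.5 bp of a region without a bud peak. Bud peaks covered a median of 725 bp of a root-lacking region, against 925 bp of a region of all 4 tissues. Coverage lower than in regions of all 4 tissues was thus seen in each shoot-side tissue, and root peaks themselves covered a median of 700 bp in the regions of all 4 tissues. Regions of at least 4 kb were rare in the root-lacking class, with 153 of 11395 (1.34%), against 2200 of 43661 (5.04%) among regions of all 4 tissues.

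**Figure D1:**
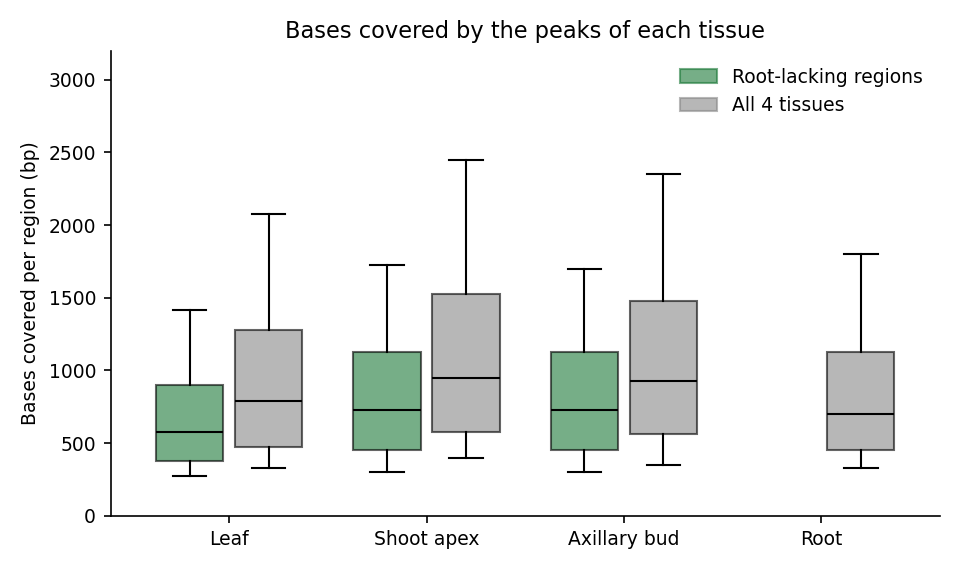
Bases covered per region by the peaks of each tissue, in bp, for root-lacking regions (green) and regions of all 4 tissues (grey). Boxes run between the quartiles with the median as a line, and whiskers mark the 10th and 90th percentiles over regions; the green boxes lie lower than the grey ones in leaf (medians of 575 and 792 bp), shoot apex (725 and 950 bp) and axillary bud (725 and 925 bp).

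Within the root-lacking regions the tissues differed in how far their peaks extended. Leaf peaks covered a median of 61.2% of the region, shoot apex peaks 75.3% and bud peaks 77.1%. The bud covered the most bases in 4625 regions (40.6%), the shoot apex in 4071 (35.7%) and the leaf in 2282 (20.03%), with ties in 417. Bud and shoot apex were nearly balanced against each other, the bud being wider in 5595 regions and the shoot apex in 5494. A leaf peak was usually the narrower one: shoot apex coverage exceeded leaf coverage in 7049 regions (61.9%) and fell short of it in 3958 (34.7%). Leaf was also lowest outside this class. Over the whole lists the median peak width was 500 bp in leaf, 525 bp in shoot apex and 550 bp in bud. Regions with a peak in every tissue had median coverages of 792, 950 and 925 bp in the same order. Which tissue covered the most bases was not counted in other classes. These counts are therefore not shown to be particular to root-lacking regions.

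The 3 tissues overlapped in a core that was much shorter than the region. Bases covered in all 3 tissues had a median of 325 bp (quartiles 225 and 550 bp), which is a median of 36.0% of the region. In 3244 regions (28.5%) the core made up at least 50% of the width. In 576 regions (5.05%) no base was covered in all 3 tissues, the peaks there being joined as a chain. Most root-lacking regions were simple, with exactly 1 peak per tissue in 9289 (81.5%). In those the midpoints of leaf and shoot apex peaks lay a median of 102 bp apart, of shoot apex and bud peaks 126.5 bp and of leaf and bud peaks 130.0 bp. The leaf peak lay wholly inside the shoot apex peak in 36.3% of them, and the shoot apex peak wholly inside the leaf peak in 16.8%. The widest tissue covered at least 2 times as many bases as the narrowest in 51.5% of root-lacking regions, against 39.8% of regions of all 4 tissues when the same 3 tissues were compared. The extent of the shoot-side peaks therefore varied more in the regions without a root peak, a difference that was not tested.

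How often the root peak was missing went down with the width of the shoot-side peaks. Among regions with peaks in the 3 shoot-side tissues, a root peak was missing at 41.0% (95% Wilson interval 39.3 to 42.7) where shoot apex peaks covered up to 300 bp. It was missing at 23.4% where they covered more than 500 and up to 750 bp, at 18.0% for more than 1000 and up to 1500 bp, and at 7.74% (6.83 to 8.75) above 3000 bp. Sorting by leaf coverage gave the same course, with 32.0% at up to 300 bp and 5.77% above 3000 bp, and so did bud coverage, with 27.9% and 7.74%. These intervals cover counting error over regions only. A root peak that joins separate shoot-side peaks into 1 region raises their coverage, and its part in this decline was not tested. A decline with width was also found where other tissues were missing. Bud peaks were missing at 53.9% of the regions of the other tissues with up to 300 bp of shoot apex coverage and at 1.86% of those above 3000 bp, and leaf peaks at 48.1% and 0.544%. Above 3000 bp of shoot apex coverage the missing share was thus highest for root among root, bud and leaf (7.74%, 230 of 2973 regions). The share missing a shoot apex peak was not computed by width.

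The widest root-lacking region lay on chromosome 3A from 356525605 to 356534704 (9100 bp). It was 1 unbroken shoot apex peak of 9100 bp, under which leaf had 6 peaks covering 3698 bp and bud 6 peaks covering 5270 bp. The second lay on 3D from 18792123 to 18800922 (8800 bp) and was a single leaf peak of that length, with 750 bp in shoot apex and 1875 bp in bud. On 2A from 19442346 to 19450819 (8474 bp) the bud gave 1 peak of 8464 bp, against 2413 bp in shoot apex and 1307 bp in leaf. The extreme widths thus came from a different tissue in each of these 3 regions. The fourth, on 2B from 446075910 to 446083829 (7920 bp), had 5900 bp in leaf, 7050 bp in shoot apex and 2238 bp in bud. The fifth lay on 1D from 465394802 to 465402641 (7840 bp), with 2675 bp in leaf, 7751 bp in shoot apex and 4449 bp in bud. The nearest root peaks lay 943, 5002, 642, 2172 and 7689 bp from these 5 regions in the order given. Coordinates follow the authors' lists, for which no genome build is stated in the labels, so no gene is named at any position.

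The nearest root peak was usually several kilobases away, not just outside the region. The gap had a median of 7695 bp, with quartiles of 2381 and 39688 bp. A root peak lay within 500 bp of 606 root-lacking regions (5.32%), within 1 kb of 1375 (12.1%), within 5 kb of 4633 (40.7%) and within 20 kb of 7559 (66.3%). A further 1617 regions (14.2%) had no root peak within 100 kb. Among peaks of at least 500 bp alone the median gap was 23702 bp. At the edge of the rule, 1 root-lacking region, on 3D from 492127934 to 492129537, touched a root peak with a gap of 0 bp. The next closest were a region on 7D from 498252015 to 498252560, with a gap of 2 bp, and one on 2A from 150133175 to 150133962, with a gap of 9 bp. On the other side of the rule, the regions of all 4 tissues with the smallest root overlap shared 5 bp (2A from 594116685 to 594118289), 11 bp (2D from 46821821 to 46824012) and 15 bp (2A from 729288360 to 729290028). Such cases were few: 39 root-lacking regions lay within 100 bp of a root peak, and 14 regions of all 4 tissues had a root overlap of up to 100 bp.

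The median gap lay within the range of the other classes lacking 1 tissue, which differed among themselves. Regions without a bud peak had a median gap of 12328 bp to the nearest bud peak, and regions without a leaf peak one of 5688 bp to the nearest leaf peak. Root-lacking regions lay between these, as in the plot of gaps. A root peak within 500 bp (5.32%) was about as frequent as a bud peak (6.28%) or leaf peak (5.74%) in the classes lacking those. Regions without a shoot apex peak, which are not plotted, had a median gap of 5893 bp to the nearest shoot apex peak. In 8.87% of them a shoot apex peak lay within 500 bp, which is more often. The gap also moved with position: of the regions within 5 kb of a root peak 69.5% were distal, that is in the outer 20% of their chromosome at either end, against 41.2% of those more than 100 kb from one. Root peaks numbered 13.4 per Mb in the outer parts and 5.19 per Mb in the inner part, and the part of this density in the gaps was not tested. Width varied little with the gap, from a median of 978 bp at gaps up to 500 bp to 1119 bp at gaps over 1000 and up to 5000 bp and 995 bp beyond 100 kb.

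**Figure D2:**
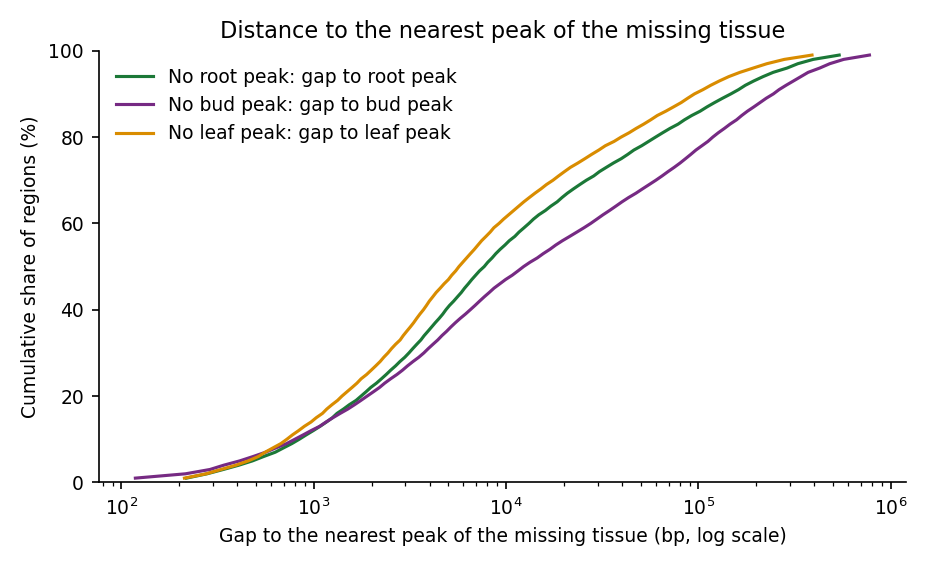
Cumulative share of regions (%) by the gap to the nearest peak of the tissue they lack (bp, log scale; 1st to 99th percentile): root-lacking regions (green), regions without a bud peak (purple) and regions without a leaf peak (orange). The green curve crosses 50% at 7695 bp, between the orange (5688 bp) and the purple curve (12328 bp).

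The root-lacking regions farthest from a root peak were mostly narrow and lay 19.95 to 35.4% of the chromosome length from the nearer end. The farthest, on 1B from 163774051 to 163774405, was 2272039 bp from a root peak and had peaks of 250 bp in leaf, 300 bp in shoot apex and 275 bp in bud. A region on 3D from 195151829 to 195153230 was 2227873 bp away and wider, with 1186 bp in leaf, 975 bp in shoot apex and 1298 bp in bud. The next were on 3B from 293694771 to 293695328 (1738791 bp away), on 1B from 137626319 to 137626918 (1700504 bp away) and, 1700310 bp away, on 2A from 238534712 to 238535386. Their widths were 558, 600 and 675 bp. Both 1B regions lie in the first 240 Mb of that chromosome, which held 643 merged regions in all.

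Root-lacking regions were neighbours of each other more often than their overall share. The next merged region along the chromosome was again root-lacking after 1238 of 11395 (10.9%, 95% Wilson interval 10.3 to 11.4), against 5.14% of all merged regions. That interval treats regions as independent draws and covers counting error only. Over the 7 homoeologous groups the next region was root-lacking after 10.8 ± 0.88% of root-lacking regions, against 5.16 ± 0.40% of all regions (SD, n = 7 groups). The difference of 5.66 percentage points had the same sign in 7 of 7 groups and passed the exact, two-sided sign-flip permutation test over the groups (p = 0.0156, adjusted p = 0.0312 over 12 tests). With 7 groups, 0.0156 is the smallest p this exact permutation test can give, and the groups are parts of the same lists, not replicates of a tissue. The difference was 7.30 points when only next regions within 20 kb were counted.

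Regions of a like class also followed each other in other classes. The next region belonged to the same class 2.11 times as often as its share of all regions for root-lacking regions. The corresponding ratio was 2.06 for regions without a leaf peak, 1.75 for regions without a bud peak, 2.88 for regions without a shoot apex peak and 1.20 for regions of all 4 tissues. On the log2 scale the ratio averaged 1.07 ± 0.13 for root-lacking regions and 0.81 ± 0.11 for regions without a bud peak (SD, n = 7 groups). That difference of 0.26 was positive in 7 of 7 groups and passed the exact sign-flip permutation test (adjusted p = 0.0312), but it depended on which peaks were used. With only those of at least 500 bp it was -0.27 with an adjusted p of 0.0312 in the exact permutation test, so the order of the 2 classes was turned round. Against regions without a leaf peak (1.02 ± 0.14) the difference of 0.04 did not pass (adjusted p = 0.675, exact sign-flip permutation test, 4 of 7 groups positive). It passed when root peaks within 1 kb of a region were counted as present in it (0.19, adjusted p = 0.0268, exact permutation test), and was 0.25 among peaks of at least 500 bp (adjusted p = 0.0536, exact permutation test).

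The next regions after root-lacking regions lacked a root peak more often than merged regions in general. After a root-lacking region, 61.9% of next regions had no root peak, against 49.2% of all regions. Both shares include the root-lacking regions themselves (10.9% and 5.14%). Regions of shoot apex and bud alone followed 1.48 times as often as their share and regions of leaf and shoot apex alone 1.42 times. For regions of leaf and bud alone the ratio was 1.21. Among regions of a single tissue it was 1.16 for shoot apex, 1.11 for bud and 0.972 for leaf, so leaf-only regions were not more frequent. Root-only regions followed 0.486 times as often as their share, at 5.79% of next regions against 11.9% of all regions. Regions of all 4 tissues were neither more nor less frequent there, with 19.7% after a root-lacking region and 19.7% overall. These shares are descriptions without a test, and they were not computed for the regions that follow other classes. Of the nearest regions that held a root peak, 53.2% were regions of all 4 tissues and 13.1% root-only regions, against 38.7% and 23.5% of all regions with a root peak.

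**Figure D3:**
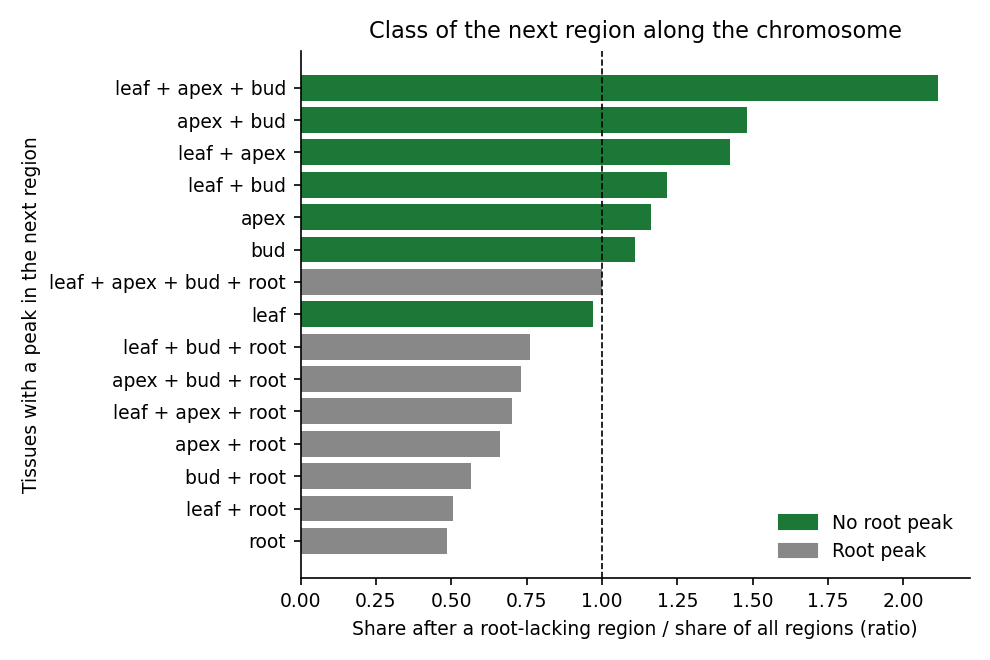
How often each class of region came next along the chromosome after a root-lacking region, divided by its share of all merged regions (ratio; the dashed line marks 1). Classes are named by the tissues with a peak, green bars having no root peak and grey bars having one; the bars run from 2.11 for another root-lacking region to 0.486 for root-only regions, and regions of all 4 tissues stand at 0.999.

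Most root-lacking regions stood alone, and long runs were rare. Of the 11395 regions, 9108 (79.9%) were not next to another one, and 2287 (20.1%) formed 1049 runs of consecutive root-lacking regions. Runs of 2 numbered 898, runs of 3 numbered 120, runs of 4 numbered 26, runs of 5 numbered 3 and runs of 6 numbered 2. A run had a median span of 5625 bp. The gap between neighbouring root-lacking regions had a median of 1572 bp, against 3721 bp between a root-lacking region and any next region.

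The longest runs were compact clusters of regions on 7D and 3A. The run on 7D from 614291052 to 614310839 held 6 regions of 900 to 2434 bp in 19788 bp. Its shoot apex peaks covered 900 to 2399 bp per region, its bud peaks 800 to 1396 bp and its leaf peaks 325 to 2040 bp. In each of the 6 regions shoot apex coverage was the highest of the 3 tissues. The run on 3A from 20147688 to 20172171 held 6 regions of 850 to 3059 bp in 24484 bp, and 13245 bp of it lay in peaks. Its last region ended 371 bp before a root peak. The runs of 5 lay on 7B from 580949030 to 580979049 (30020 bp), on 7D from 116413318 to 116548812 (135495 bp) and on 5D from 50325053 to 50483431 (158379 bp). The 7B run had no root peak within 66524 bp on one side and 239041 bp on the other, and the 7D run none within 994897 and 277296 bp. Little of the span of the 7D and 5D runs lay in peaks, 7036 bp of the 7D run and 6423 bp of the 5D run. Their regions were not spaced evenly. On 5D they lay close together from 50325053 to 50332285 and again from 50481567 to 50483431, with a long gap between. On 7D those from 116468940 to 116480193 lay close together, with long gaps on both sides.

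Root-lacking regions were also counted per stretch between neighbouring root peaks, where by the rule any other region has peaks in fewer shoot-side tissues. The 11395 regions lay in 9051 of the 119366 stretches between 2 neighbouring root peaks, apart from the few beyond the outermost root peaks, and 4019 of them (35.3%) shared their stretch with another. The fullest stretch lay on 7A from 619593928 to 620289610 (695683 bp) and held 12 root-lacking regions of 423 to 2825 bp among 23 regions. The others of that stretch were 7 regions of a single tissue and 4 of a pair of tissues. A stretch on 5B from 528952705 to 529505382 held 10 root-lacking regions of 600 to 1300 bp among 19 regions. Stretches on 6A from 5602963 to 6189685 and on 6B from 640134500 to 640902972 held 8 each, among 13 and 18 regions. Of the 5 fullest stretches the shortest was on 2D from 603495039 to 603515577, where 7 root-lacking regions of 850 to 2007 bp lay in 20539 bp together with 3 other regions.

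In windows of 1 Mb, 5891 of 13700 windows with any merged region held a root-lacking region, and 352 held at least 5. The window on 2D from 13000001 to 14000000 held the most, 19, out of 34 regions with peaks in the 3 shoot-side tissues, so that 55.9% of these lacked a root peak. Roots were not empty there, with 53 peaks and 14 root-only regions. The window on 7D from 4000001 to 5000000 held 17 root-lacking regions of 45 (37.8%) beside 75 root peaks. The window on 7D from 538000001 to 539000000 differed from both: 16 of 20 regions of the 3 shoot-side tissues (80.0%) lacked a root peak, and roots had 9 peaks in all. Its root-lacking regions had medians of 1238 bp in leaf, 1475 bp in shoot apex and 1021 bp in bud, above the medians of the whole class in each tissue. This was not particular to that window. The medians in the same order were 789, 1200 and 1100 bp in the 2D window. In the 7D window from 4000001 they were 675, 1025 and 1000 bp, so both were above the whole class as well.

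Root-lacking regions followed the general crowding of wheat peaks toward chromosome ends, and their distal share was not shown to differ from that of regions of all 4 tissues. The outer 20% at either end held 64.1% of root-lacking regions (95% Wilson interval 63.2 to 65.0), against 62.3% of regions of all 4 tissues. Averaged over the 7 homoeologous groups the shares were 64.2 ± 5.17% and 62.4 ± 3.95% (SD, n = 7 groups). Root-lacking regions had the higher share in 5 of 7 groups, and the difference of 1.82 percentage points did not pass (adjusted p = 0.211, exact sign-flip permutation test). It passed with the outer 30% taken as distal (2.59 points, adjusted p = 0.0268, exact permutation test). Among regions with 500 to 1000 bp of shoot apex coverage it was 3.88 points (adjusted p = 0.0625, exact permutation test), and it was -1.24 points when the bud list was left out, the opposite direction.

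Regions lacking a bud or a leaf peak departed from the root-lacking regions in opposite directions, while regions of all 4 tissues (62.3% distal) lay near them. Per 100 merged regions of any class, 4.98 were root-lacking in the outermost 5% of the length at either end. There were 5.41 from 15% to 20%, 5.66 from 20% to 25% and 3.77 from 45% to 50%. Regions without a shoot apex peak were distal in 63.4% (95% Wilson interval 61.5 to 65.2), close to the 64.1% of root-lacking regions, and were not tested. Regions without a bud peak were distal in 48.7 ± 4.88% per group, which is 15.6 points below root-lacking regions. Regions without a leaf peak were distal in 77.5 ± 4.99%, and root-lacking regions were 13.3 points below them (difference of -13.3). Both had the same sign in 7 of 7 groups and passed (exact sign-flip permutation test, p = 0.0156, adjusted p = 0.0312 each). The 2 comparisons share the root-lacking regions. In that range of shoot apex coverage, the differences were 15.2 and -13.3 points.

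Expressed as a rate, the lack of a root peak was nearly level over most of the chromosome and lowest in its middle. In the outermost 5% of the length at either end, 21.5% of the regions of the 3 shoot-side tissues had no root peak (95% Wilson interval 20.8 to 22.2). The rate was 21.5, 20.8, 20.4, 21.4, 21.7 and 20.6% in the next 6 steps of 5%. It was 18.3% and 19.1% in the steps from 35% to 45%, and 16.5% (15.1 to 18.0) in the innermost step. The rates for bud and leaf peaks changed more along the same axis, and that for shoot apex peaks was not computed. A bud peak was missing at 13.3% of the regions of the other tissues in the outermost step and at 31.5% in the innermost, and a leaf peak at 23.4% and 7.51%.

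**Figure D4:**
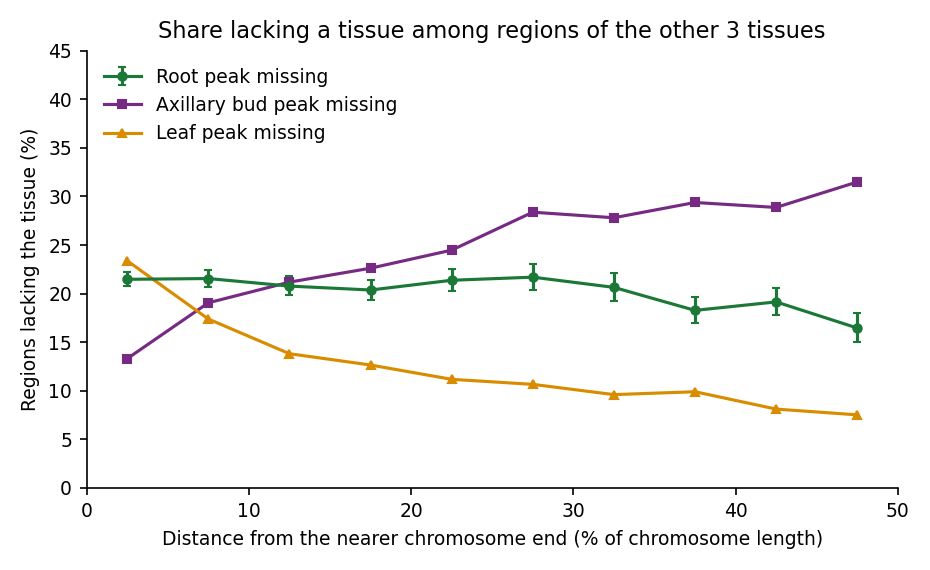
Share of regions (%) lacking a root peak (green, with 95% Wilson intervals), a bud peak (purple) or a leaf peak (orange) among regions with peaks in the other 3 tissues, by distance from the nearer chromosome end in steps of 5% of chromosome length. The root curve stays between 20.4 and 21.7% up to 35% and drops to 16.5% in the middle, while the bud curve climbs to 31.5% and the leaf curve declines to 7.51%.

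The 3 subgenomes held similar numbers of root-lacking regions. D had 3709 (32.5%), A 3810 (33.4%) and B 3876 (34.01%), while D has 28.1% of the chromosome length, A 35.1% and B 36.8%. Of all merged regions D held 33.7%, A 33.1% and B 33.1%. Per length, D chromosomes carried 0.941 ± 0.080 root-lacking regions per Mb, A chromosomes 0.772 ± 0.049 and B chromosomes 0.747 ± 0.105 (SD, n = 7 chromosomes each). D exceeded A by 0.169 and B by 0.194 per Mb, in 7 of 7 groups each, and both passed (exact sign-flip permutation test, p = 0.0156, adjusted p = 0.0312). All accessible regions together show a D excess per length too, so the rate per accessible region was also compared. The A excess over B of 0.025 per Mb, seen in 4 of 7 groups, did not pass (adjusted p = 0.682, exact permutation test), and without group 1 it was -0.010.

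Per accessible region the order was the opposite and no difference passed. D chromosomes had 5.01 ± 0.58 root-lacking regions per 100 merged regions, A chromosomes 5.21 ± 0.35 and B chromosomes 5.28 ± 0.47 (SD, n = 7). D minus B was -0.27 per 100 regions and D was lower in 6 of 7 groups (exact sign-flip permutation p = 0.0469, adjusted p = 0.0804). This contrast passed when each shoot-side tissue had to cover 25% of the region (-0.29, adjusted p = 0.0312, exact permutation test) and when root peaks within 1 kb counted as present (-0.28, adjusted p = 0.0469, exact permutation test). It vanished among peaks of at least 500 bp (0.0053, adjusted p = 0.953, exact permutation test). D minus A was -0.19 (adjusted p = 0.50, exact permutation test) and A minus B -0.075 (adjusted p = 0.797, exact permutation test). Widths hardly differed between subgenomes, with medians of 1066 bp on D, 1050 bp on A and 1049.5 bp on B. The nearest root peak lay a median of 6642 bp away on D, 7420 bp on A and 9177 bp on B.

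**Figure D5:**
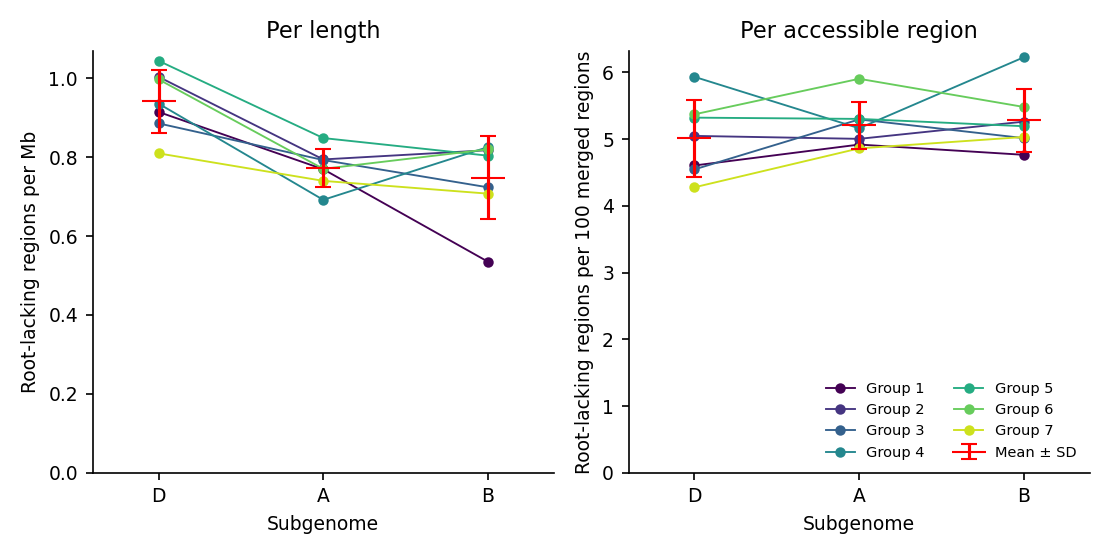
Root-lacking regions per Mb (left) and per 100 merged regions (right) on the D, A and B chromosomes of each homoeologous group (1 line per group; red bars, mean ± SD of 7 chromosomes). On the left D lies above A and B in each of the 7 groups; on the right the means of 5.01 for D, 5.21 for A and 5.28 for B lie within each other's spread.

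Single chromosomes varied more than subgenomes in the rate per accessible region. The highest rate of the B subgenome was on 4B, with 556 root-lacking regions or 6.23 per 100 merged regions, and the lowest on 1B, with 369 or 4.76 per 100. In the D subgenome 4D was highest (5.93 per 100) and 7D lowest (4.28 per 100, 517 regions). In the A subgenome 6A was highest (5.90 per 100) and 7A lowest (4.86 per 100). Counted among regions of the 3 shoot-side tissues, a root peak was missing at 23.9% on 4B (95% Wilson interval 22.3 to 25.7) and 22.2% on 4D (20.5 to 24.0). The lowest such rates were 18.1% on 1D (16.6 to 19.6) and 18.6% on 1A (17.1 to 20.2). On 1B the first 240 Mb held 17 root-lacking regions among 643 merged regions, against 116 among 2479 on 1A and 132 among 2718 on 1D in the matching first part of those chromosomes. Group 4 thus had the highest rates on B and D chromosomes but not on 4A, which had 5.16 per 100.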

How the data were processed

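ATAC-seq was run on 4 tissues, 2 libraries each, per the labels. The authors deposited 1 peak list per tissue with 3 columns, chromosome, start and end, and no other value; these positions are the unit used here. Per the submitters' processing notes, Trimmomatic 0.36, Bowtie2, MACS2 and bedtools were used. Not given in the sources used here are the genome build, the peak threshold, the versions of the other tools and the handling of replicates. How peaks were joined or filtered upstream could change every width and gap.

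Lists were checked to be sorted and free of overlaps. Starts were taken as counted from 0 and are printed counted from 1. Peaks sharing at least 1 bp were merged. Chromosome length is the end of the last peak on it (14065 Mb in all). The 95% Wilson intervals of shares treat regions as independent draws, although root-lacking regions lay next to each other more often than their share. They cover counting error over regions only, not the spread between libraries. The gene table on hand (IWGSC CS RefSeq v2.1) could not be placed on the lists: 3.65% of root-lacking regions lay within 1 kb of a protein-coding gene edge, against 3.31% after a shift of 1 Mb. No gene or sequence is therefore given.

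Differences in position, density and neighbourhood were tested by exact two-sided sign-flip permutation over the 7 homoeologous groups (128 sign patterns), with Benjamini-Hochberg adjustment over 12 tests and a threshold of 0.05. At least 4 tests at the smallest p are needed for 1 to pass. Regions were named by rule: the 5 widest, the 5 farthest from a root peak, the 5 longest runs, the 5 fullest stretches between root peaks, the 3 fullest windows of 1 Mb, 3 on either side of the rule, and the extreme chromosomes of each subgenome. The regions, tests and rules were chosen with earlier results of these data known. Calculations used Python 3.11.15, numpy 2.4.6, pandas 2.3.3 and scipy 1.17.1, and were tested on simulated lists. Alternatives are given in the closing section.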

Additional observations from a re-analysis of the deposited data

Results flagged for a closer look

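Among the 7 B chromosomes, 1B had the fewest root-lacking regions per Mb, 0.535 against 0.707 on the next lowest, 7B. The gap was 0.594 of the range of the 7 chromosomes, above the 95% critical value of the Dixon test. Its first 240 Mb held 0.071 root-lacking regions per Mb, where the matching first parts of 1A and 1D held 0.561 and 0.766. This first part of 1B held 2.64 per 100 merged regions (17 root-lacking regions), where 1A held 4.68 and 1D 4.86. The boundary at 240 Mb followed no rule stated here and lay just before root-lacking regions resumed on 1B. These values therefore add no support to the outlying value of 1B. Among the 7 A chromosomes, 6A had the most root-lacking regions per 100 merged regions, 5.90 against 5.30 on the next highest, 5A. The gap was 0.576 of the range, just above the critical value. For the share lacking a root peak among regions of the 3 shoot-side tissues, the gap of 6A was 0.514, below the critical value. 1B per Mb and 6A per 100 merged regions were the outlying values among 15 sets of 7 chromosomes checked, and chance gives about 1 in 20 such sets.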

How the results depend on the processing

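The root-lacking regions numbered 10403 with gaps of up to 500 bp joined, 9995 with each shoot-side tissue covering 25% of the region, 8307 for peaks of at least 500 bp, 10020 with root peaks within 1 kb counted and 10466 with each list cut to its widest 119387 peaks. They numbered 21718 with the bud list left out, an alternative chosen after seeing the data, as was the restriction by shoot apex coverage. Median widths in leaf, shoot apex and bud were 599, 750 and 750 bp with gaps joined, 600, 750 and 750 bp in cut lists, and 850, 1025 and 1025 bp for peaks of at least 500 bp, where the median gap was 23702 bp. The D excesses per Mb, the distal differences from regions without a bud or leaf peak and the neighbour excess kept their direction and passed under each of these alternatives that was run for them; leaving out the bud list gives no difference from regions without a bud peak, and the restriction was run for distal shares only. The neighbour difference from regions without a bud peak, exact permutation test, was 0.25 with gaps joined (adjusted p = 0.0804), 0.31 at 25% coverage (0.0536) and -0.27 for peaks of at least 500 bp, and 0.39 with root peaks within 1 kb counted. From regions without a leaf peak it was 0.19 with root peaks within 1 kb counted, 0.25 for peaks of at least 500 bp, 0.17 in cut lists and 0.12 with gaps joined. The distal difference from regions of all 4 tissues was 2.59 points for the outer 30%, 3.88 under the restriction by shoot apex coverage and -1.24 without the bud list. Per 100 merged regions, D minus B was -0.29 at 25% coverage, -0.28 with root peaks within 1 kb and 0.0053 for peaks of at least 500 bp, and A minus B was 0.16 for peaks of at least 500 bp and 0.20 without the bud list. The causes were not tested.

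With each homoeologous group left out in turn no contrast passed. With 6 groups the smallest exact permutation p is 0.0312, and too few of the 12 tests reached it for any to pass after adjustment (smallest adjusted p = 0.0536). The ranges were 1.16 to 2.37 points (all 4 tissues), 14.98 to 16.3 (no bud) and -14.3 to -12.6 (no leaf) for the distal differences. They were 0.157 to 0.186 (D minus A), 0.163 to 0.209 (D minus B) and -0.010 to 0.051 (A minus B) per Mb, and -0.35 to -0.099, -0.33 to -0.19 and -0.16 to 0.090 per 100 regions in the same order. For neighbours they were 5.45 to 5.81 points, 0.22 to 0.30 (no bud) and 0.00029 to 0.098 (no leaf). A minus B turned to -0.010 per Mb without group 1 and to 0.090 per 100 regions without group 4. No paired analysis was possible because nothing in the files belongs to a single library, and no replicate could be left out. Depth is unknown and limits every comparison between lists.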
